A study of Mus musculus with 6 samples.

Results

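The AP-1 factors Fos, Fosb, Fosl2, Jun, Junb, Jund, Atf3, Maff and Batf3 were measured in microglia of 2 genotypes. The 9 genes were taken by symbol: every non-control probe whose transcript accession belongs to one of them was used, which gave 13 of the 33767 probes that could be named, for 9 of 23462 named genes. The samples were gene expression arrays of live CD45lo Cx3cr1+ CD11b+ cells sorted from the brains of 3-month-old C57BL/6 mice. In 3 samples the mice were Bhlhe41 dTomato-Cre/+ (B41HET, the controls), and in the other 3 they were Bhlhe41 dTomato-Cre/dTomato-Cre (B41KO, Bhlhe41-deficient). In this knock-in allele, dTomato and Cre stand in front of the Bhlhe41 coding sequence under the gene's own promoter, and no Bhlhe41 protein is made from it. The controls carry 1 copy of it, and no wild-type array was compared here. The methods describe each sample as a pool of several mice, whereas the labels can be read as 3 mice per genotype, so what one of the 3 replicates stands for is not settled.

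AP-1 is a family of transcription factors with a basic leucine zipper (bZIP), a helix through which 2 proteins pair and grip DNA. Fos proteins must pair with Jun proteins, Jun proteins can also pair with each other, and the ATF, small Maf and Batf proteins join in further pairs, so the mixture of members sets which sites are bound and whether a target is activated or repressed. Many members are immediate early genes, which are transcribed within minutes of a stimulus through MAP kinases and pre-made factors such as Srf and Elk1. In microglia they are also induced when cells are taken out of the tissue, a known concern for sorted cells.

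Between 70.1% and 75.5% of the probes were well above background on each array, and none was saturated. Values are log2 signals after quantile normalization of the 6 arrays, and a log2 difference is always B41KO minus B41HET. Calls needed an adjusted p of at most 0.05 (limma with Benjamini-Hochberg adjustment over all 56601 probes tested) and an absolute log2 fold change of at least 0.5. The Bhlhe41 probes had log2 signals of 7.95, 7.87 and 7.65 in B41HET against 8.56, 7.84 and 8.21 in B41KO for one, and 7.86, 7.58 and 7.40 against 7.96, 7.90 and 7.96 for the other. Neither was called (log2 fold changes 0.38 and 0.33, adjusted p = 0.330 and 0.203). Whether Bhlhe41 RNA is still made past the polyA signal of the inserted cassette was not tested, so these probes are no measure of the knockout. All 10 microglia markers, among them P2ry12 and Tmem119, were well above background on every array. By limma 0 of 10 were called, beside 5.45% of all named genes. An unadjusted limma p under 0.05 was found for 3 of the 10 and for 5873 of the 23462 named genes. For 5 of the 10 the groups did not overlap, against 32.2% of all named genes. The log2 of the summed signal of the microglia list was 17.43 to 17.55 in B41HET and 17.44 to 17.49 in B41KO.

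Atf3, Fosb, Fos and Jun were lower in B41KO microglia, by 2.41, 1.89, 1.52 and 1.46-fold. These 4 of the 9 genes were called on their brightest probe, all of them lower, while 5.45% of all named genes were called, 1.44% higher and 4.01% lower. Of the 13 probes, 5 were called, against 5.07% of all probes. The counts of 4 genes and 5 probes rest on all 6 samples: with 1 sample left out, 2 genes were called (3 without B41KO replicate 2) and 2 to 3 probes. With slide row as a block, each difference rests on 1 B41KO array, as set out below. With the replicate number as a block 0 genes were called. In that fit 7 of the 9 had an unadjusted p under 0.05 by limma, as did 24.0% of all named genes. Fosl2 had a log2 fold change of 0.58 in the other direction and missed the adjusted p threshold. Junb and Jund had negative differences that missed the fold or the p threshold, Batf3 differed by 0.03, and Maff was too dim to be well above background anywhere. For 7 of the 9 genes the 3 B41KO values did not overlap the 3 B41HET values, 6 below and 1 above, against 32.2% of all named genes without overlap. The median log2 fold change of the 9 genes was -0.55, against 0.01 over all named genes. The middle one of the 9 is Maff, whose number measures no change because its signal was at background, and the members ranked on either side of it are Jun (-0.55) and Fos (-0.60). With 3 samples a group, the smallest p that a two-sided exact permutation test can give for a single probe is 0.1, and it gave 0.1 for each of the 9 probes whose groups did not overlap. In pooled sorted cells, fewer cells that express a gene and less RNA per cell cannot be told apart.

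**Figure D1:**
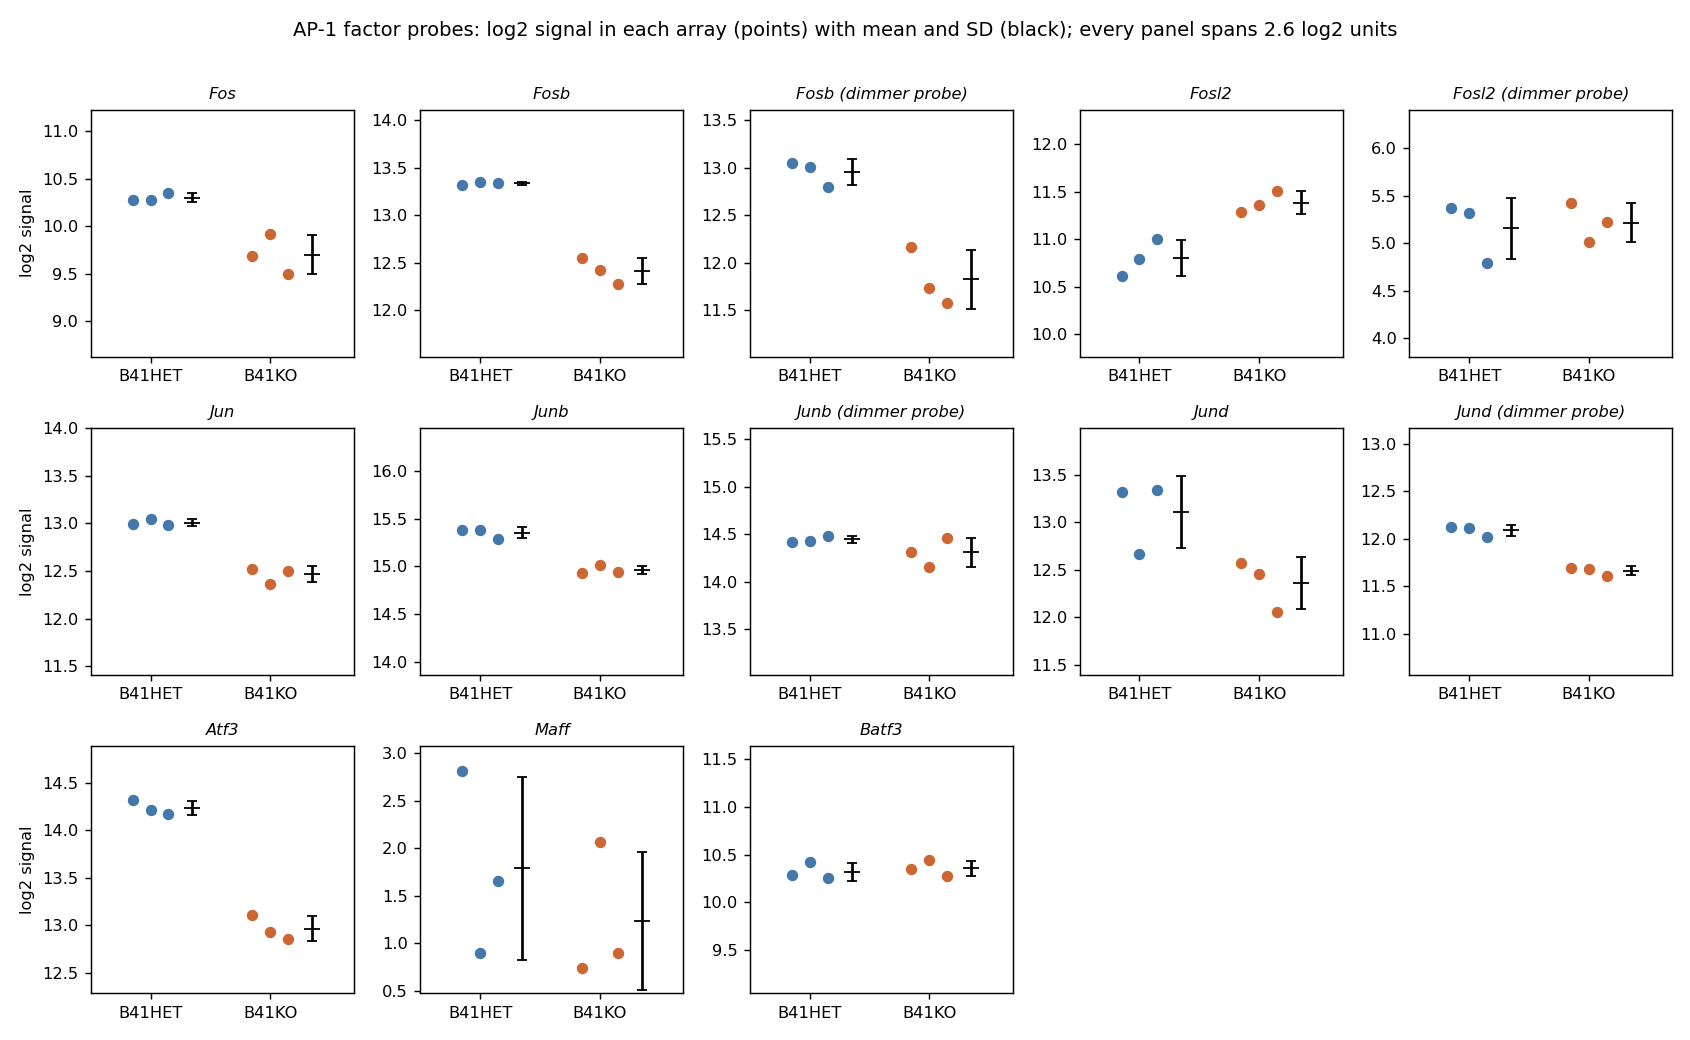
Log2 signal (y axis, each panel spanning the same number of log2 units) of the 13 AP-1 factor probes in the 3 B41HET (blue) and 3 B41KO (orange) arrays, with the mean and SD of each genotype in black. The groups stand apart for Fos, both Fosb probes, the brighter Fosl2 probe, Jun, the brighter Junb probe, both Jund probes and Atf3, and overlap for Batf3, while the Maff values were not well above background.

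The promoters of Fos, Jun and Atf3 are shown because they are the called genes whose windows held one of the motifs searched. All 9 genes had an entry in the RefSeq promoter table (GRCm38.p6), as 11 windows of 250 bases before to 50 bases after a start, 3 of them for Maff. The strict AP-1 site TGANTCA was in 0 of the 11 windows and in 7.81% of all 32851 promoters. The CRE-like site TGACNTCA was in the Jun window and in 2 Maff windows, and in 8.83% of all promoters. The shorter CRE core TGACGT was in the windows of Fos, Atf3 and 1 for Maff, where it lies inside the longer site, and in 7.51% of all promoters. The E-box CACGTG, the kind of site that Bhlhe41 binds, was in the Batf3 window and 1 Maff window, and in 7.15% of all promoters. Both strands were searched; a match describes the letters and does not show a site in use. The last 150 bases before the start are printed 5′ to 3′ on the gene's strand, with the matched motif in capitals, for Fos at chr12:85473740-85473889 (plus strand), Jun at chr4:95052223-95052372 (minus strand) and Atf3 at chr1:191183334-191183483 (minus strand).
Fos: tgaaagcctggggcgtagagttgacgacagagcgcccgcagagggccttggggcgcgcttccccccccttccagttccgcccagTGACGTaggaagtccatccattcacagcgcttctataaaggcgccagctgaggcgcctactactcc
Jun: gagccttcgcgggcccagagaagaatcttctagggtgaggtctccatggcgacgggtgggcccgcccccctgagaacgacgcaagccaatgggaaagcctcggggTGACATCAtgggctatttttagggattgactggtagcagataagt
Atf3: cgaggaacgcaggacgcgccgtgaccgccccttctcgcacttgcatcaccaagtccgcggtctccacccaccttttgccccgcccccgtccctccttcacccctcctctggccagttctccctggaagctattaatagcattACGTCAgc
The capitals begin 66 bases before the start in Fos, 45 in Jun and 8 in Atf3, where ACGTCA is TGACGT read on the other strand. None of the 4 motifs was common to all 3 windows.

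Among the genes for Fos proteins, the RNA signals of Fos and Fosb were called lower in B41KO and that of Fosl2 was not. Fos, whose protein pairs with Jun to form the classical AP-1 dimer, had log2 signals of 10.28, 10.28 and 10.35 in B41HET and 9.69, 9.92 and 9.50 in B41KO. All 3 B41KO samples were below every control, and the B41KO values were the more spread. The log2 fold change was -0.60 (SE 0.12, limma adjusted p = 0.0452). This call rests on nearly every sample: without any 1 sample other than B41KO replicate 2, the adjusted p lay between 0.0869 and 0.134. Without B41KO replicate 2 it was 0.0475. The log2 fold change with 1 sample left out lay between -0.71 and -0.50.

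Fosb, a Fos relative induced by repeated or lasting stimuli, had log2 signals of 13.32, 13.35 and 13.34 in B41HET and 12.55, 12.43 and 12.28 in B41KO on its brighter probe. Its other probe gave 13.05, 13.01 and 12.80 against 12.17, 11.74 and 11.57. On both probes all 3 B41KO samples were below all controls. The log2 fold changes were -0.92 (SE 0.090, limma adjusted p = 0.00810) and -1.13 (SE 0.17, adjusted p = 0.0244). Without each sample in turn, the brighter probe stayed called, with adjusted p values of 0.0235 to 0.0480. The other probe stayed called only without B41KO replicate 1 (adjusted p = 0.0249); without any other sample its adjusted p was 0.0616 to 0.0944.

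Fosl2, which codes for Fra-2, a Fos protein with no strong activation domain, had log2 signals of 10.61, 10.79 and 11.00 in B41HET and 11.28, 11.36 and 11.51 in B41KO on its brighter probe. It was the one member whose B41KO samples were all above the controls. The log2 fold change was 0.58 (SE 0.12, 95% interval 0.28 to 0.89) and the adjusted p was 0.0531 by limma. Its other, far dimmer probe gave 5.37, 5.32 and 4.79 against 5.42, 5.01 and 5.22, which overlap; the log2 difference was 0.06 (adjusted p = 0.894). Scaling the arrays by their 75th percentiles instead of quantile normalization brought the brighter probe to an adjusted p of 0.0482, so that its call turns on the processing.

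The Jun proteins can bind as pairs among themselves, and of their 3 genes only Jun was called. Jun had log2 signals of 12.99, 13.05 and 12.99 in B41HET and 12.52, 12.37 and 12.50 in B41KO. The controls lay within 0.1 of each other and all B41KO samples were below them. The log2 fold change was -0.55 (SE 0.075, limma adjusted p = 0.0188), just past the fold threshold. Without any 1 of the 6 samples the call was lost, at adjusted p values of 0.0528 (without B41KO replicate 3) to 0.0839 (without B41HET replicate 2), while the log2 fold change stayed between -0.57 and -0.50.

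Junb, often an antagonist of Jun at shared targets, had log2 signals of 15.39, 15.39 and 15.29 in B41HET and 14.93, 15.01 and 14.94 in B41KO on its brighter probe. These groups did not overlap, and the adjusted p of 0.0342 (limma) passed, but the log2 fold change of -0.39 (SE 0.070) was short of the fold threshold. The other Junb probe gave 14.42, 14.43 and 14.48 against 14.31, 14.16 and 14.45, with overlap (log2 fold change -0.14, adjusted p = 0.471). The Junb probes therefore differ in whether they pass the p threshold.

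Jund, the most constantly expressed of the Jun genes in most tissues, had log2 signals of 13.31, 12.67 and 13.34 in B41HET and 12.57, 12.46 and 12.05 in B41KO on its brighter probe. B41HET replicate 2 stood near the B41KO samples, though still above them. The log2 fold change was -0.75 with an SE of 0.23 and an adjusted p of 0.131 (limma). The other Jund probe was tighter, with 12.13, 12.12 and 12.02 against 11.69, 11.69 and 11.61, a log2 fold change of -0.42 (SE 0.072) and an adjusted p of 0.0306, short of the fold threshold. Without a fold threshold, Junb joined the 4 called genes, which made 5.

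**Figure D2:**
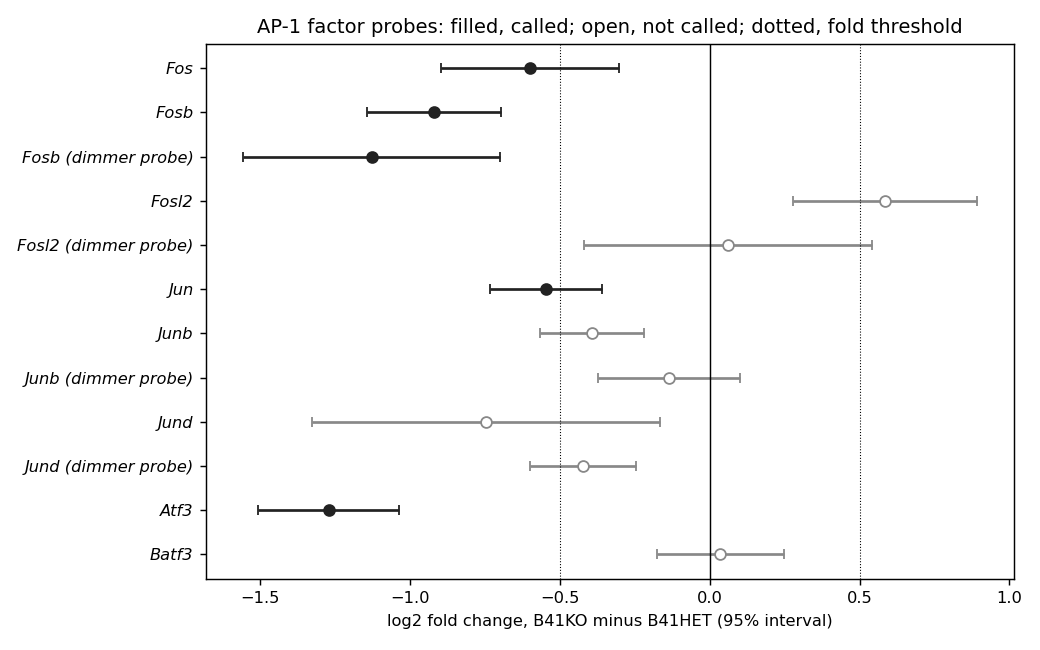
Log2 fold change (x axis, B41KO minus B41HET) with its 95% interval from limma for each AP-1 factor probe well above background (y axis), with filled points for called probes, open points for the others and dotted lines at the fold threshold of 0.5. Filled points are at -1.27 for Atf3, -0.92 and -1.13 for Fosb, -0.60 for Fos and -0.55 for Jun. Maff, which was not well above background, is left out.

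Atf3 had the largest difference of the members that were well above background. It codes for a stress-induced bZIP factor that acts mainly as a repressor and curbs inflammatory genes in macrophages. Its log2 signals were 14.32, 14.21 and 14.17 in B41HET and 13.11, 12.93 and 12.85 in B41KO. The lowest control was more than 1 log2 unit above the highest B41KO sample. The log2 fold change was -1.27 (SE 0.095, 95% interval -1.51 to -1.04, limma adjusted p = 0.00431). It stayed called without any 1 sample, at adjusted p values of 0.0142 to 0.0318.

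Batf3, a partner of Jun proteins that is required for a class of dendritic cells, lies on the same chromosome as Atf3, at 191098414 to 191108943 of chromosome 1 against 191170296 to 191183333 for Atf3 (GRCm38.p6). Its log2 signals were 10.28, 10.42 and 10.25 in B41HET and 10.35, 10.44 and 10.27 in B41KO, which overlap. The log2 fold change was 0.03, with a 95% interval of -0.18 to 0.25 (limma adjusted p = 0.856). That interval leaves out a change as large as the fold threshold. Of the 7 dendritic cell markers, 5 were well above background on all 6 arrays, and 2 of these, Clec10a and Cd209a, were called lower on their brightest probe (log2 fold changes -1.92 and -1.74). The other Cd209a probe, also well above background throughout, had -0.12 with overlapping groups (adjusted p = 0.715). The rest of the 5, Flt3, Zbtb46 and Itgae, were not called. Their groups overlapped, with log2 fold changes of 0.14, 0.01 and -0.22. Xcr1 was well above background on none of the 6 arrays and Clec9a on 2 B41HET arrays and 1 B41KO array.

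Maff is a small Maf protein that lacks an activation domain and is induced by stress and cytokines. Its single probe gave log2 signals of 2.81, 0.90 and 1.65 in B41HET and 0.74, 2.07 and 0.90 in B41KO, none well above background. The groups overlap, no difference between the genotypes can be read from such values, and the adjusted p was 0.644 (limma).

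The likely position of the arrays on the slide was not the same for both genotypes. The position was inferred from the array names, since no label states it: they place all 3 B41HET arrays and B41KO replicate 1 in the first slide row, and B41KO replicates 2 and 3 in the second, so that with the row as a block each difference rests on 1 B41KO array against 3 controls. With that block the log2 fold change was -1.13 for Atf3, -0.79 for Fosb, -0.62 for Fos and -0.49 for Jun. Since 1 B41KO array stands behind each of these, they are given as sizes only. The values for Atf3 and Fosb in B41KO replicate 1 were the nearest to the controls, and were still 1.07 and 0.77 log2 units below the lowest control.

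**Figure D3:**
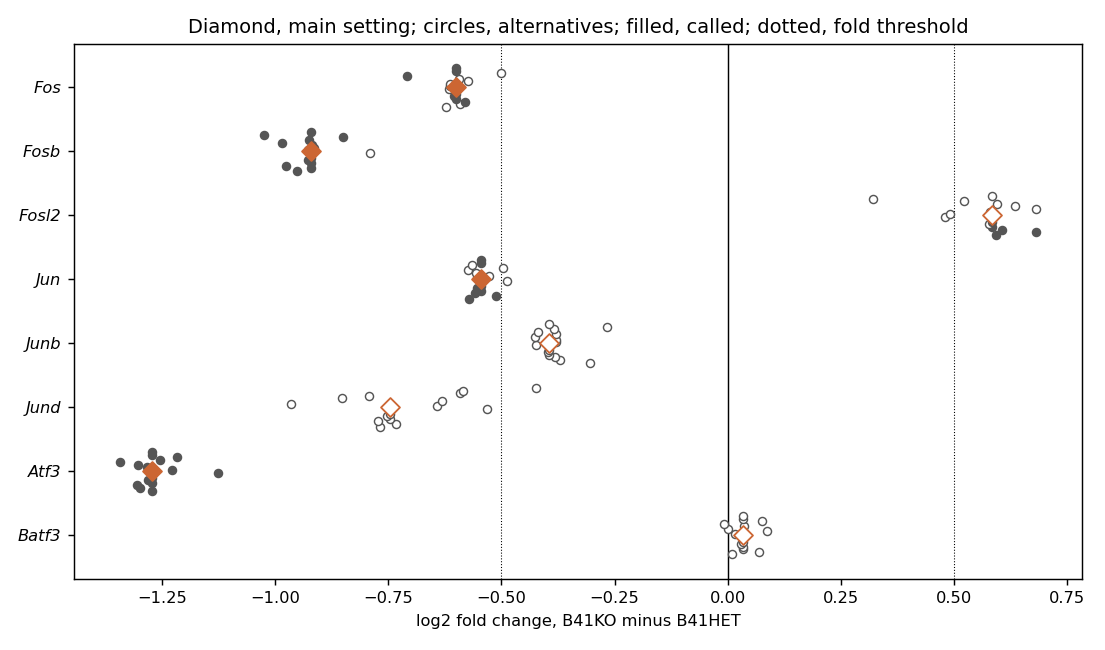
Log2 fold change (x axis, B41KO minus B41HET) of each AP-1 factor other than Maff (y axis) under the main setting (diamond) and the alternatives (circles), with filled symbols where called and dotted lines at the fold threshold of 0.5. Atf3 ranged from -1.34 to -1.13 and Fosb from -1.02 to -0.79, Fosl2 stayed above 0, and Batf3 lay around 0.

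The genes around AP-1 were read from 6 lists with 97 measured genes in all, each by its brightest probe. Of these, 19 were called, 17 lower and 2 higher, beside the 5.45% of all named genes, and the median log2 fold change was -0.20. The count was 12 without B41HET replicate 2, without B41HET replicate 3 or without B41KO replicate 1. With the replicate number as a block it was 1.

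Among 15 other bZIP factors, Batf2 rose and Crem was called lower on signals that were at background in B41KO. Batf2, an interferon-inducible Batf relative, had mean log2 signals of 5.77 ± 0.11 in B41HET and 6.51 ± 0.21 in B41KO (SD, n = 3 each; limma adjusted p = 0.0351). Crem, a cAMP-responsive modulator, was well above background on the 3 B41HET arrays and on none of B41KO, and was at least 1.41-fold lower there (adjusted p = 0.0179). That bound is 0.49 on the log2 scale, short of the fold threshold, so the Crem call rests on values below background. Batf, also a partner of Jun, differed by 0.62 on the log2 scale at an adjusted p of 0.0556.

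Of the 26 kinases and factors that switch AP-1 genes on, 1 was called on its brightest probe. That is 3.85%, near the 5.45% of all named genes. The called gene was Mapk3, which codes for the kinase ERK1 and fell by 0.57 on the log2 scale (SE 0.088, limma adjusted p = 0.0251). The median of the list was -0.10. Elk1, a factor at the serum response element and the brightest probe of this list, differed by -0.05 (adjusted p = 0.707), and Srf by -0.21 (adjusted p = 0.140). A dimmer probe was called lower for Elk4 (-0.83, adjusted p = 0.0245) and for Rps6ka3 (-0.58, adjusted p = 0.0286), whose brightest probes had 0.02 and 0.36.

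Of 14 inhibitors of the pathway, most of which act on MAP kinase signalling and 1, Fbxw7, in the breakdown of Jun, 3 were called, all lower, and the median was -0.35. The phosphatases Dusp5 and Dusp1 fell by 1.32 and 1.11 on the log2 scale (limma adjusted p = 0.00343 and 0.00466), and Spry1, an inhibitor of receptor tyrosine kinase signalling, fell by 1.02 (adjusted p = 0.0301). Dusp1 log2 signals were 10.67 ± 0.05 in B41HET and 9.56 ± 0.12 in B41KO (SD, n = 3 each). Dusp6, the brightest of the list, differed by -0.09 on the log2 scale (adjusted p = 0.744).

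Of 18 other immediate early genes, 6 were called, all lower, and the median was -0.48. The largest differences were in Klf2, a factor that holds back inflammatory genes (12.01 ± 0.06 against 10.85 ± 0.11, SD, n = 3 each; log2 fold change -1.16, limma adjusted p = 0.00435), Csrnp1 (-1.09), Egr3 (-1.06) and the stress gene Gadd45b (-0.95), and the others were Klf6 and Klf4. Myc, with the brightest probe, had -0.46 (adjusted p = 0.0299), short of the fold threshold. Other members of the list were not called, among them Nr4a2 with 0.37 (adjusted p = 0.141), Zfp36 with -0.09 and Ier3 with -0.04. A dimmer Btg2 probe was called lower (-0.62, limma adjusted p = 0.0354), while the brightest had -0.24.

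The stress genes that lie upstream of Atf3 or beside it were split. Of 7, Atf4, the central factor of the integrated stress response, and Ddit3, its target CHOP, were called. Atf4 had 11.81 ± 0.08 against 10.76 ± 0.07 (SD, n = 3 each; log2 fold change -1.05, limma adjusted p = 0.00440) on its brighter probe but only -0.12 (adjusted p = 0.435) on the other, and Ddit3 had -0.77 (adjusted p = 0.0319). Asns, an Atf4 target, had 0.53 on its brighter probe (adjusted p = 0.103) and rose by 1.61 on the dimmer one (adjusted p = 0.00772). Chac1 was too dim on all 6 arrays.

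Textbook AP-1 targets went both ways. Of 17, 4 were called lower and 1 higher, with a median of -0.36. The gelatinase gene Mmp9 fell by 3.00 on the log2 scale (9.76 ± 0.05 against 6.76 ± 0.07, SD, n = 3 each; limma adjusted p = 0.000282), and Vim, Cd44 and the cytokine gene Tnf fell by 2.01, 1.26 and 0.73. Plaur, the urokinase receptor gene, rose by 1.83 (8.17 ± 0.08 against 10.01 ± 0.01, adjusted p = 0.000895). Ptgs2, the cyclooxygenase-2 gene, was well above background on the 3 B41HET arrays and none of B41KO, at least 1.17-fold lower but not called (adjusted p = 0.0563), and Mmp3 and Mmp13 were well above background on none of the 6 arrays. Dimmer probes were called lower for Il1b (-1.56, adjusted p = 0.0120) and Plau (-1.31, adjusted p = 0.00740), whose brightest probes had -0.37 and -0.09.

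**Figure D4:**
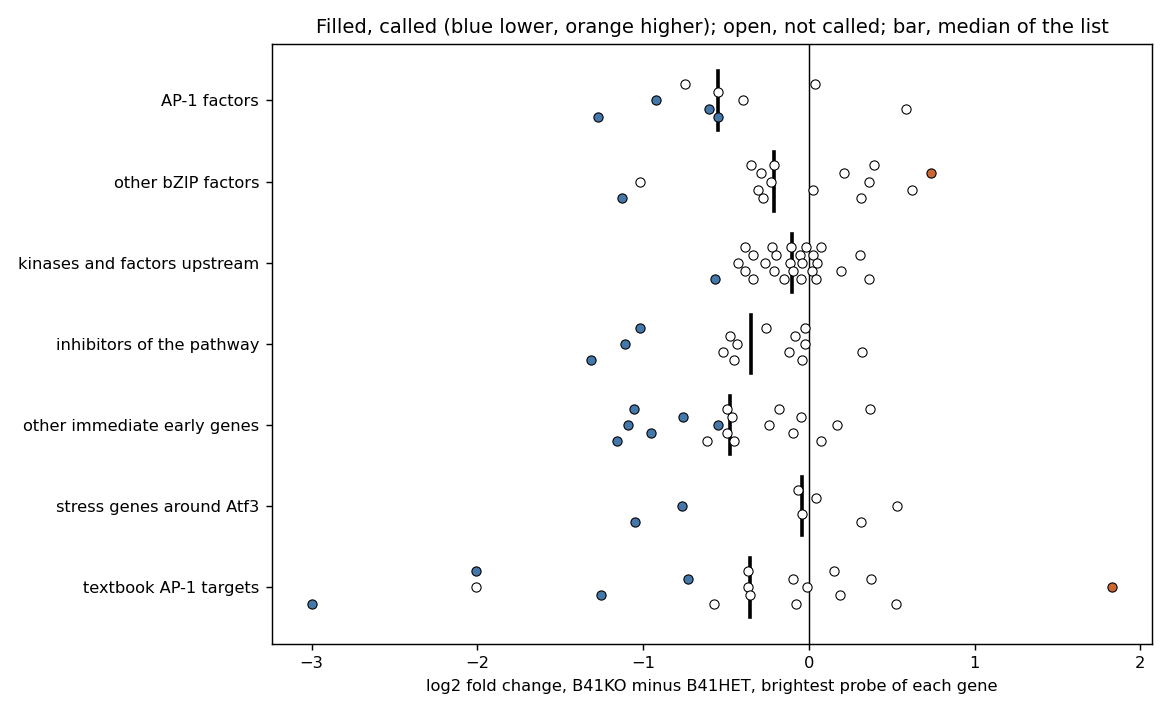
Log2 fold change (x axis, B41KO minus B41HET) of every measured gene on its brightest probe, in the AP-1 factors and the 6 related lists (y axis), with filled points for called genes, open points for the others and a bar at each list's median. Genes not well above background on any array, such as Maff, are among the open points. The medians lie at -0.55 for the AP-1 factors, -0.48 for other immediate early genes and -0.10 for the upstream kinases and factors.

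Markers of other cells moved with the genotype beside these values. Of 10 neutrophil markers, 7 were called lower, among them S100a8, S100a9 and Ly6g, while Mpo had 0.39 with all B41KO values above the controls (limma adjusted p = 0.157) and Elane -0.04, and the log2 of the summed signal of the list was 14.51 to 14.67 in B41HET and 11.93 to 12.06 in B41KO. All 10 were well above background on each B41HET and B41KO array. Of 7 border macrophage markers, 5 were called lower (log2 of the summed signal 8.31 to 8.47 against 7.14 to 7.24), and Lyve1 and Mrc1 were well above background in B41HET alone. Of 7 dendritic cell markers 2, and of 5 endothelial markers 2, were called lower (8.43 to 8.62 against 7.60 to 7.83, and 10.16 to 10.29 against 8.62 to 8.80). The endothelial ones were Ly6c1 and Pecam1, which leukocytes also express, while Cldn5 had -0.13 (adjusted p = 0.473) and Cdh5 and Flt1 were well above background on none of the 6 arrays. Of the B cell and oligodendrocyte lists 1 marker of 4 each was lower, and on the brightest probes none was called by limma among T and NK cell, astrocyte or neuron markers (1, 0 and 0 had an unadjusted p under 0.05). Several AP-1 genes and targets, among them Mmp9, are also expressed by neutrophils. The cells were sorted as CD45lo Cx3cr1+ CD11b+, and the part of neutrophils and these other cells in the AP-1 values was not tested.

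Over the 6 samples, the genes whose log2 signal followed a member most closely were found among 17214 candidates well above background on all arrays. For Atf3 they were Hdac3, Rpl28 and Myo18a (Pearson r 0.9997, 0.9992 and 0.9991). For Jun they were 5730416F02Rik, Gpr35 and Syne1 (0.999, 0.999 and 0.998), and for Fos Nid2, Pank2 and Pqlc3 (0.996, 0.996 and 0.995). These points share 6 arrays and 1 genotype step: 1230, 832 and 428 genes had an r above 0.95 with Atf3, Jun and Fos.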

How the data were processed

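RNA of sorted microglia was hybridised to 1-colour Agilent mouse arrays, 3 per genotype. The intensity values deposited by the authors are Agilent Feature Extraction 11.5.1.1 processed signals (background-subtracted), with flags for outlier spots and for signal well above background. A table of log2 values, quantile normalized by the authors, was deposited beside them. Each of its columns had a median of 5.10 and kept the order of the scanner values; it served as an alternative. Control and outlier spots were left out, log2 processed signals were quantile normalized, spots of a probe were averaged, and genotypes were compared with limma 3.58.1 in R 4.3.3 (figures with matplotlib 3.10.9). Probes were named by accession through RefSeq; 33767 of 56605 matched 1 gene, and the probe with the highest mean stood for a gene. The steps were tested on simulated data of 3 arrays against 3. There 42% of log2 changes of 1 and 77% of log2 changes of 2 were called, with 4 false calls. A gene that was not called can therefore still differ. Named are all members, from each related list up to 4 called genes with the largest change and the brightest gene, the markers needed, and the 3 most similar genes for Fos, Jun and Atf3; genes named beyond this rule (Nr4a2, Zfp36, Ier3, Klf6, Klf4, Srf, Batf, Asns, Ptgs2, Chac1, Fbxw7, Elk4, Rps6ka3, Btg2, Il1b, Plau, Mmp3 and Mmp13 among them) were chosen after their values were seen. Some genes that fall under this rule are not reported here. Members, lists and tests were chosen with earlier results of these data known. The alternatives were 75th percentile shift, the deposited log2 values, normexp (offset 50) on median signals, a filter on dim probes, outlier spots kept, trended robust variance, replicate number or slide row as block, each sample left out, no fold threshold, and other rules for the probe of a gene. The number of arrays limits the precision. The labels call the samples biological replicates.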

Additional observations from a re-analysis of the deposited data

How the results depend on the processing

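Across the alternatives, 7 of the 8 members that were well above background kept the sign of their log2 fold change throughout; the other one, Batf3, turned to -0.0077 without B41KO replicate 2 (-0.0077 to 0.087 with 1 sample left out) and was never called. Atf3 was called in 15 of 16 alternatives, Fosb in 14, Jun in 8 and Fos in 7. Fosl2 was called higher, making 1 AP-1 gene called higher, under the 75th percentile shift, the deposited log2 values, normexp, the filter on dim probes and the trended robust variance. With normexp 1500 probes were called in all. The 75th percentile shift moved the median log2 difference of all probes from 0.02 to 0.13 and the share higher among called probes from 34.0% to 45.8%. Under it, and with the deposited log2 values, Fos lost its call (adjusted p = 0.0526 and 0.0517), which left 3 AP-1 genes called lower beside Fosl2. With the slide row as a block, 1 AP-1 gene (lower), 1 AP-1 probe, 5 genes of the 6 lists and 444 probes in all were called. With the replicate number as a block (replicate block), 0 AP-1 genes (0 lower), 0 AP-1 probes, 1 gene of the 6 lists and 42 probes in all were called, with an adjusted p of 0.0574 for Atf3; the deviations of samples of the same number had r = 0.13, -0.01 and 0.17, against -0.19 to 0.08 for samples of different numbers, which does not show a pairing and does not settle that there is none. In that limma fit 7 of the 9 members had an unadjusted p under 0.05, as did 24.0% of all named genes. Leaving out 1 sample gave 2 to 3 AP-1 genes called (2 to 3 lower), 2 to 3 AP-1 probes, 12 to 13 genes of the 6 lists and 792 to 1525 probes in all. Leaving out a sample also leaves fewer arrays, and other causes were not tested. Maff has no value under the filter on dim probes.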
